A study of Mus musculus with 23 samples.

Results

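The immunoglobulin heavy chain constant genes set the class of an antibody. Every developing B cell first makes IgM, from Ighm, and a mature naive B cell adds IgD, from Ighd, by processing the same primary transcript in another way. After antigen contact the locus can be cut and a downstream constant gene brought next to the variable region, so that the cell changes to IgG (Ighg3, Ighg1, Ighg2b, Ighg2c) or IgA (Igha). Plasma cells, the antibody secreting end stage, fill much of their messenger RNA with the gene of the class they use, and mucosal plasma cells mostly use Igha.

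The 7 genes Ighm, Ighd, Ighg3, Ighg1, Ighg2b, Ighg2c and Igha were taken by symbol from the 32285 genes of each expression table. Their unique molecular identifiers (UMIs, each counted as 1 captured RNA molecule) were read in 2 sets of cell barcodes. Barcodes with at least 1 UMI of Cd79a, the signalling partner of the B cell receptor, made up the Cd79a-positive set, with 18193 of 124431 kept barcodes. RNA of other cell types was read in it too, as Cd3e UMIs occurred in 12.6% to 20.3% of its spleen barcodes. Its levels are therefore not read as those of B cells alone. Barcodes with at least 5 Jchain UMIs that were also at least 0.5% of their UMIs made up the antibody secreting set, called Jchain-high here, with 146 barcodes. Jchain encodes the chain that joins IgM and IgA units, and these barcodes were left out of the Cd79a-positive set.

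The 16 expression libraries came from C57BL/6 mice at 2 months of age, either wild type (WT) or with the Stat5b tyrosine of the allele name changed, to phenylalanine in Y665F and to histidine in Y665H. Lymph node (LN) had 2 WT, 3 Y665F het and 2 Y665F homo libraries. Bone marrow (BM) had 2 libraries each of WT, Y665H and Y665F, and spleen had 1 of each. For spleen and bone marrow the labels name the allele without zygosity. The spleen libraries held CD45+ cells, and a legend of the study, titled for spleen although its text names lymph nodes, describes the single sample of each group as combined from 3 mice. Both changes are in the germline, the Y665H change made by adenine base editing and the Y665F change with an oligonucleotide donor, so that an effect within B cells and an effect of other cells on B cells cannot be told apart. Stat5b transmits signals of cytokine receptors, among them those of IL-2 and IL-7. The labels number the replicates without naming animals, so p-values cover the spread between these libraries.

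Libraries held 2621583 to 55768078 UMIs. The shallowest were LN Y665F het replicate 3 and LN Y665F homo replicate 1, in which the Cd79a-positive barcodes had medians of 301 and 297 UMIs, against 711 to 1944.5 in the other LN libraries. LN and BM libraries shared at most 2.59% of the barcodes of the smaller library of a pair, and LN and spleen libraries shared at most 3 barcodes. Heavy chain variable (Ighv) UMIs numbered 1.30 to 1.62 per constant gene UMI in LN Cd79a-positive barcodes, 0.115 to 0.430 in BM and 0.0325 to 0.0453 in spleen. The labels name a 3′ kit and the study's methods a 5′ kit, so levels were compared within a tissue only.

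The 7 genes lie in 1 cluster of 167901 bases on the minus strand of chromosome 12 (GRCm38, GENCODE vM21 annotation), in the order Ighm, Ighd, Ighg3, Ighg1, Ighg2b, Ighg2c and Igha along the direction of transcription. Ighm occupies chr12:113418558-113422730 and Ighd chr12:113406604-113416324, and Igha, at the far end, occupies chr12:113254830-113260236. The 4 Ighg genes are alike in sequence, with first exons identical at 78.4% to 88.3% of bases between pairs. The first 90 bases of their first exon, which encodes the start of the first constant domain, are shown because a read must fall on a differing base to separate them. Capitals mark bases that differ from Ighg1.
Ighg1: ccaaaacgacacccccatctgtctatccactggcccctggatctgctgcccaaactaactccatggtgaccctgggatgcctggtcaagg
Ighg2b: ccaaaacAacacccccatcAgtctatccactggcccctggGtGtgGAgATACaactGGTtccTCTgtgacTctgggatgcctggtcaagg
Ighg2c: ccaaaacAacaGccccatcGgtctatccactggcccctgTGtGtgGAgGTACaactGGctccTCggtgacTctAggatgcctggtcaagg
Ighg3: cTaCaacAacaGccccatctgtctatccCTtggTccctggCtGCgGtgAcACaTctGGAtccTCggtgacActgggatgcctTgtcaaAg
These stretches lie at chr12:113330434-113330523 (Ighg1), chr12:113307844-113307933 (Ighg2b), chr12:113288843-113288932 (Ighg2c) and chr12:113361143-113361232 (Ighg3). Against Ighg1, Ighg2b differs at 17, Ighg2c at 18 and Ighg3 at 23 of the 90 bases. Over all exons, every 31-base word of Ighm, Ighd and Igha was unique among the 7 genes. The share of unique words was 98.3% for Ighg1, 96.4% for Ighg3, 90.7% for Ighg2b and 85.0% for Ighg2c. Ighg2b and Ighg2c share 186 such words, so a read that falls only on these cannot be assigned to either gene.

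In lymph node, Cd79a-positive barcodes of every genotype held mostly Ighm and Ighd. In the small Ighg fraction, Ighg2b and Ighg1 were lower in Y665F het than in WT libraries by edgeR, and neither was called by DESeq2 (adjusted p = 1 for each). Ighm and Ighd were not called in either comparison, and no member was called in the Y665F homo libraries. The comparison asks whether the Y665F allele, in 1 or 2 copies, goes with another use of antibody classes.

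Ighm, the first class made, was at 805 and 778 CPM in WT (counts per 1000000 UMIs of the gated barcodes), at 1004, 1022 and 946 CPM in Y665F het, and at 744 and 955 CPM in Y665F homo. The 3 het libraries lay above both WT libraries, and the homo libraries lay on either side of WT. On the log2 scale the difference from WT was 0.33 (SE 0.13, edgeR quasi-likelihood adjusted p = 0.452) in het and 0.14 (SE 0.15, adjusted p = 0.859) in homo. Ighd, the marker of naive mature cells, was at 384 and 388 CPM in WT, 441, 492 and 333 CPM in het and 429 and 444 CPM in homo. The het libraries overlapped WT, and the log2 differences of Ighd were 0.18 (SE 0.14, adjusted p = 0.817) and 0.20 (SE 0.16, adjusted p = 0.784).

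Ighg2b was the most frequent Ighg gene in Cd79a-positive barcodes of WT lymph node. Its level was 38.8 and 53.3 CPM in WT (86 and 133 UMIs), 0, 3.88 and 12.03 CPM in het (0, 5 and 3 UMIs) and 23.8 and 1.53 CPM in homo (5 UMIs and 1 UMI). In CPM all 5 mutant libraries lay below both WT libraries. With each barcode thinned to 300 UMIs, which leaves out 325 of the 621 barcodes of homo replicate 1 and 354 of the 718 of het replicate 3, Ighg2b occurred in 7 of 2784 and 8 of 2427 WT barcodes. It then occurred in 0 of 1072, 0 of 1114 and 1 of 364 het barcodes and in 4 of 296 and 1 of 809 homo barcodes, so that by this measure homo replicate 1 (1.35%) lay above both WT libraries (0.251% and 0.330%) and het replicate 3 (0.275%) between them. The log2 difference of Ighg2b was −4.34 in het (SE 0.51, adjusted p = 3.04e-05), and ran from −3.09 without het replicate 1 to −5.11 without het replicate 2. In homo it was −2.67 (SE 0.66, adjusted p = 0.161), a difference that did not pass the test. In summed UMIs, 219 in WT against 8 in het came to a ratio of 21.6 per total UMI, with a 95% counting interval of 10.8 to 50.7.

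Ighg1, which in mice follows IL-4 signals, was at 6.31 and 13.2 CPM in WT (14 and 33 UMIs). It was at 0, 0 and 4.01 CPM in het, from 1 UMI in all, and at 19.1 and 6.10 CPM in homo, from 4 UMIs in each library. Het lay below WT, and homo spanned the WT range. The log2 difference of Ighg1 was −4.77 in het (SE 0.91, adjusted p = 0.00539) and −0.04 in homo (SE 0.70, adjusted p = 0.995). In het it ran from −3.69 without het replicate 1 to −6.91 without het replicate 3. The ratio of WT to het rested on 47 UMIs against 1 and was 37.1, with a counting interval of 6.35 to 1498.

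Of the 6 members that passed the count filter, 2 were called lower in het and 0 higher, at an adjusted p under 0.05 and a change over 2-fold, where 0.539% of the 9095 genes tested were called lower, 0.099% higher and 0.638% in all. In homo 0 of 6 were called, where 0.044% of the genes were called (0.022% higher and 0.022% lower). There 780 genes, with Ighg2b among them, were at an unadjusted p under 0.05, and DESeq2 also called 0 of the 6 members. Ighg2b in homo was called with no filter on low counts (edgeR adjusted p = 8.19e-06), with barcodes of at least 500 genes (6.34e-05) and without WT replicate 1 (0.00552), and its difference ran from −4.82 without homo replicate 1 to −1.03 without homo replicate 2. Both comparisons share the WT libraries. Both het calls were lost in DESeq2, with adjusted p = 1 for Ighg2b (log2 difference −3.32) and for Ighg1 (−4.45). The Ighg1 call was also lost with doublet-scored barcodes kept (adjusted p = 0.320) and without WT replicate 2 (0.209), het replicate 1 (0.273) or het replicate 2 (0.0572), while the Ighg2b call of edgeR held in the other alternatives run.

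The other members were rare. Ighg3, an IgG made mainly against bacterial sugars, had 9 and 5 UMIs in the WT, 3, 12 and 1 in the het and 2 and 1 in the homo libraries, and its log2 differences were 0.56 (adjusted p = 0.916) in het and 0.25 (adjusted p = 0.984) in homo. Igha had 16 and 12 UMIs in the WT libraries, 14, 10 and 7 in the het and 3 and 7 in the homo libraries. As a level, Igha was at 7.22 and 4.81 CPM in WT, 6.40, 7.77 and 28.1 CPM in het and 14.3 and 10.7 CPM in homo, with log2 differences of 0.54 (SE 0.48, adjusted p = 0.843) and 0.97 (SE 0.67, adjusted p = 0.737). The groups of Igha overlapped in het and not in homo, and neither difference passed the test. Ighg2c did not pass the count filter, with 12 and 7 UMIs in the WT, 0, 4 and 0 in the het and 1 and 7 in the homo libraries.

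**Figure D1:**
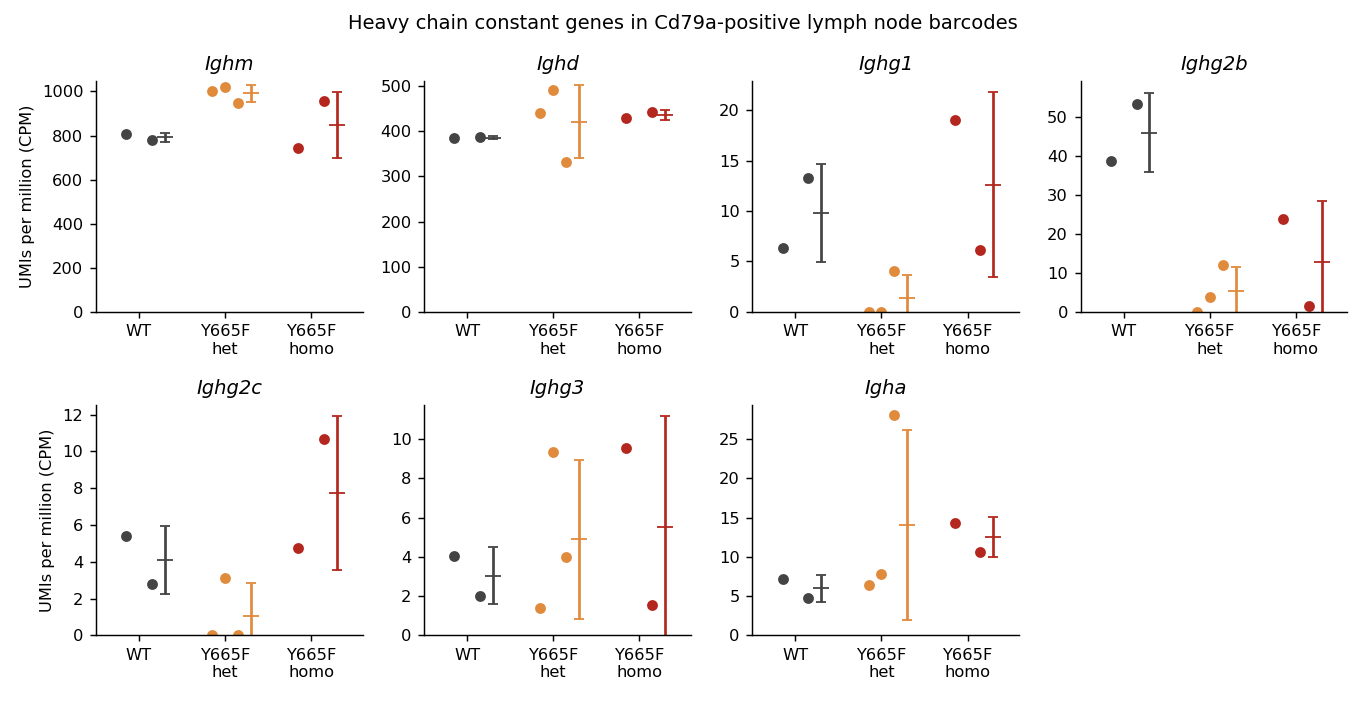
Level of each heavy chain constant gene in Cd79a-positive lymph node barcodes, in CPM, by genotype. Points are libraries (2 WT, 3 Y665F het, 2 Y665F homo), and the bar to their right is the mean ± SD, clipped at 0; Ighm and Ighd sit at like heights in all genotypes, and Ighg2b of every mutant library sits below WT.

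As a share of all UMIs of the 7 genes, the 5 switched genes (4 Ighg and Igha) took 5.54 ± 0.84% in WT (SD, n = 2), 1.91 ± 1.57% in het (n = 3) and 3.94 ± 2.55% in homo (n = 2). Single WT libraries were at 4.94% and 6.13%. The het libraries were at 0.535%, 1.57% and 3.63%, and the homo libraries at 5.75% and 2.13%. The 2 highest mutant values were those of the 2 shallow libraries, which held 12 and 15 switched UMIs. A barcode was given a class where 1 class had at least 2 UMIs and most of its constant gene UMIs, with Ighm and Ighd as a common class. In WT 22 and 28 barcodes had the class Ighg2b, beside 701 and 794 of the class Ighm or Ighd. In the 3 het and 2 homo libraries 0 barcodes had the class Ighg2b, beside 770, 550, 62, 38 and 244 of the class Ighm or Ighd.

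Most WT lymph node barcodes with Ighg UMIs also held a UMI of Mki67 or S1pr2. Germinal centres are the sites where dividing B cells switch class, marked by the positioning receptor S1pr2 and, as dividing cells, by Mki67. Only these genes of the germinal centre list were used here. They are also the list genes called lower in het below, so the overlap is not independent of that call. Mki67 marks dividing cells of any kind, and 24.9% of WT bone marrow Cd79a-positive barcodes held a UMI of either gene. Barcodes with an Ighg UMI numbered 43 and 64 for WT, 3, 4 and 5 for het and 9 and 5 for homo. As shares of Cd79a-positive barcodes these were 1.54% and 2.64%, then 0.280%, 0.359% and 0.696%, and 1.45% and 0.618%, so that homo replicate 1 lay close to WT replicate 1. Of the 107 WT barcodes with an Ighg UMI, 76 (71.0%) also held a UMI of Mki67 or S1pr2, against 2.15% of all 5211 WT Cd79a-positive barcodes. In het this held for 0 of 3, 4 of 4 and 0 of 5 Ighg barcodes of the 3 libraries, so that all came from het replicate 2, and in homo for 1 of 9 and 2 of 5. Igha showed another pattern, since 1 of the 28 WT barcodes with an Igha UMI held either gene.

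Mki67 and S1pr2 themselves were lower in het. Barcodes with a UMI of either gene numbered 44 and 68 for WT, 3, 8 and 4 for het and 1 and 3 for homo. Of 11 tested genes of the class switch and germinal centre list, 2 were called lower in het and 0 higher, where 0.539% of all genes tested were called lower and 0.099% higher. These were Mki67, with a log2 difference of −3.81 (SE 0.52, adjusted p = 0.000113), and S1pr2 with −2.72 (SE 0.49, adjusted p = 0.00288). In homo 0 of 11 were called, with S1pr2 at −2.50 (SE 0.78, adjusted p = 0.297). The median log2 difference of the list was −0.24 for het and −0.27 for homo, beside 0.01 over all genes in each. In these sums fewer germinal centre cells and less Ighg RNA per cell cannot be told apart.

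**Figure D2:**
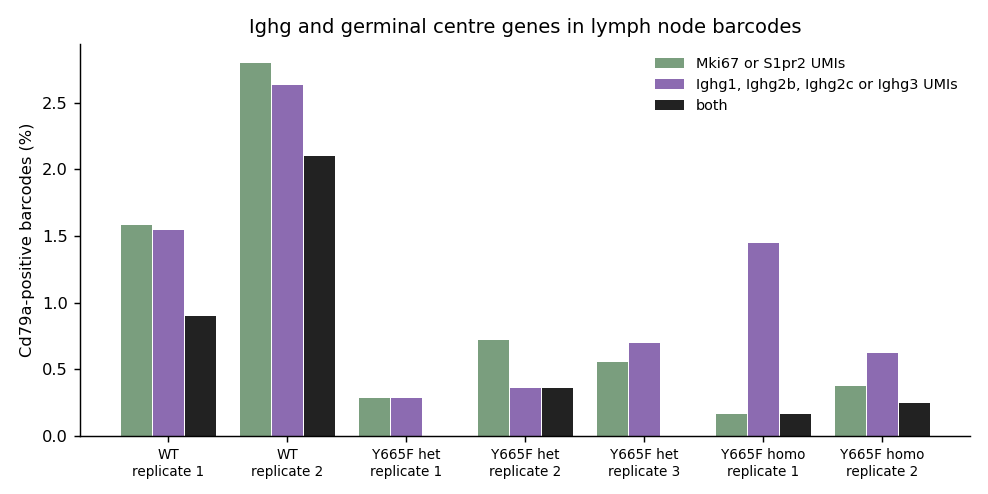
Share of Cd79a-positive lymph node barcodes in each library that held a UMI of Mki67 or S1pr2 (green), of any Ighg gene (purple) or of both (black). The 2 WT libraries have the 2 highest Ighg shares, 1.54% and 2.64%, and in them the black bar takes most of the purple bar, while the mutant libraries lie at 0.280% to 0.696%, apart from Y665F homo replicate 1 at 1.45%, where the black bar is a small part of the purple one. Barcodes were not thinned to a common depth here, and Y665F homo replicate 1 is a shallow library.

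Among genes of the B cell receptor and of mature B cells 0 of 11 were called in het and in homo, and among light chain constant genes 0 of 4, with Igkc at a log2 difference of 0.01 (adjusted p = 1) in het and 0.01 (adjusted p = 0.998) in homo. Cd79a, which the choice of this set used, is 1 of the 11 and is not read as tested. Of 4 tested genes linked to the choice between Ighm and Ighd transcripts, among them Zfp318, which Ighd needs, 0 were called in either. Jchain, which the choice of this set used, is given as a level only, with no test, and was at 51.4 and 81.0 CPM in the WT, 0.915, 6.22 and 8.02 CPM in the het and 9.53 and 4.58 CPM in the homo libraries. Of 8 T cell genes, 3 were called higher in het (Cd8a, Cd8b1 and Cd3d), where 0.099% of all genes were called higher, and 0 in homo, where 0.022% were. Their summed level was 78.5 to 89.0 CPM in WT, 154 to 441 in het and 147 to 210 in homo. Without barcodes that held a UMI of a Cd3 gene or of Siglech, a plasmacytoid dendritic cell gene, the log2 difference of Ighg2b in het was −4.25 (adjusted p = 6.81e-05) and that of Ighg1 −4.75 (adjusted p = 0.00681).

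The ratio of Ighd to Ighm UMIs separates mature naive cells, which make both, from immature cells. In LN Cd79a-positive barcodes it was 0.478 and 0.499 in the WT libraries, 0.439, 0.481 and 0.352 in the het and 0.577 and 0.465 in the homo libraries. The genotypes overlapped. For the order WT, het, homo, an exact permutation test, two-sided, gave p = 1 (adjusted p = 1 over 2 tests; the smallest this design allows is 0.00952). The log2 ratio differed from WT by −0.21 in het and by 0.09 in homo. In spleen the ratio was 0.318 in WT, 0.334 in Y665H and 0.321 in Y665F, from 4003 to 12367 Ighd UMIs a library. In BM it was 0.0214 and 0.0207 in WT, 0.0128 and 0.0305 in Y665H and 0.0240 and 0.0285 in Y665F, from 3 to 19 Ighd UMIs a library. The exact permutation test of the order Y665H, WT, Y665F gave p = 0.578 (adjusted p = 1; smallest possible 0.0222), with log2 differences from WT of −0.09 in Y665H and 0.31 in Y665F.

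**Figure D3:**
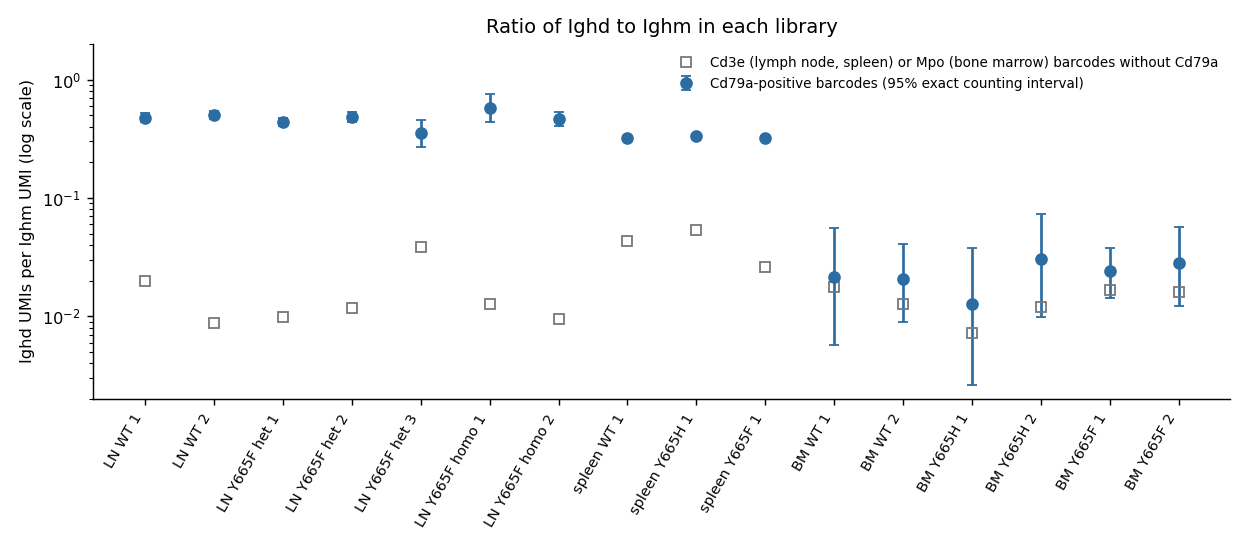
Ighd UMIs per Ighm UMI in each of the 16 libraries, on a log axis, in Cd79a-positive barcodes (filled circles with 95% exact counting intervals) and in barcodes without Cd79a that held Cd3e (LN and spleen) or Mpo (BM) (open squares). LN and spleen circles sit between 0.318 and 0.577, far above their squares. BM circles, at 0.0128 to 0.0305, have intervals that contain the squares, so BM ratios cannot be told from those of the Mpo barcodes.

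Ighm was also read outside the Cd79a-positive set. In LN barcodes with Cd3e and no Cd79a UMI, taken as T cells, it was at 186 to 262 CPM, against 744 to 1022 CPM in Cd79a-positive barcodes. The other B cell transcripts did not follow it there. Igkc, the kappa light chain, numbered 0.0049 to 0.0640 UMIs per Ighm UMI in these T cells and 1.22 to 1.71 in Cd79a-positive barcodes, and Ighd numbered 0.0087 to 0.0385 per Ighm UMI and 0.352 to 0.577. UMIs of Ighv genes numbered 0.0023 to 0.0833 and 1.91 to 2.71 per Ighm UMI in the same order. Igkc, Ighd and Ighv thus stood far lower beside Ighm in T cell than in Cd79a-positive barcodes of each library. The share of T cell barcodes with an Ighm UMI ran from 10.8% to 50.4% at median depths of 453 to 3487.5 UMIs, and from 5.75% to 8.51% once each barcode was thinned to 300 UMIs, against 19.3% to 25.7% of Cd79a-positive barcodes thinned likewise. Ighg UMIs in the T cell barcodes numbered 0 to 1 a library, beside 43 and 64 Cd79a-positive barcodes with an Ighg UMI in WT, while single Ighg genes of the mutant libraries, at 0 or 1 UMI in places, cannot be told from this background there.

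In spleen there was 1 library per genotype and so no test, and plasma cells held most of the constant gene UMIs. The Jchain-high barcodes numbered 38 in WT (0.586% of kept barcodes), 61 in Y665H (0.813%) and 22 in Y665F (0.456%). They held 59.1%, 62.3% and 61.6% of all UMIs of the 7 genes in their libraries. Within a barcode 1 gene prevailed, with a median of 99.9%, 99.6% and 99.9% of the constant gene UMIs. Mzb1 was detected in 38 of 38, 59 of 61 and 22 of 22 of these barcodes and Xbp1 in 38, 60 and 20; both belong to the secretory programme of plasma cells.

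Igha led most splenic Jchain-high barcodes in each genotype. It led 31 of 38 in WT (81.6%, 95% exact binomial interval 65.7 to 92.3), 36 of 61 in Y665H (59.0%, 45.7 to 71.4) and 15 of 22 in Y665F (68.2%, 45.1 to 86.1). Ighm led 4, 11 and 6 barcodes in the same order. Ighg1 led 0, 6 and 0, Ighg2b 2, 3 and 0, and Ighg2c 1, 5 and 1. Together the Ighg genes led 3 barcodes in WT, 14 in Y665H and 1 in Y665F, and Ighg3 and Ighd led 0. A Y665F barcode with 749 Ighg1 UMIs lay just under the Jchain minimum, at 0.480% of its UMIs, and is not among these. In 3 of these barcodes the 7 genes took under 1% of the UMIs. In WT 1 was led by Ighg2b, with 18 of 18767 UMIs, and in Y665H 1 was led by Igha, with 21 of 21556, and 1 by Ighm, with 25 of 16862, so that their leading gene rests on few UMIs. Other barcodes were shallow. Ighm-led barcodes held as few as 693, 838 and 1482 UMIs in Y665H and 783 and 2009 in Y665F, beside library medians of 17567 and 19446. In WT the Ighm-led barcodes held at least 9113 UMIs, and the Igha-led ones at least 3001. The Ighm counts of the mutants thus rest in part on shallow barcodes. The binomial intervals cover counting error only, and descendants of 1 activated cell can share a class.

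**Figure D4:**
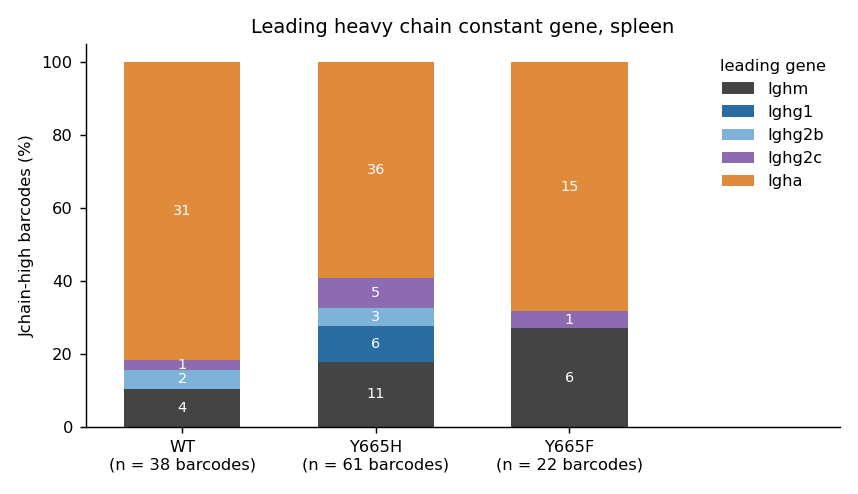
Share of splenic Jchain-high barcodes led by each heavy chain constant gene, in 1 library per genotype, with the number of barcodes written in each segment. Igha takes the largest segment in each library, 31 of 38, 36 of 61 and 15 of 22 barcodes, and Ighg1 leads barcodes in Y665H only, where a Y665F barcode led by Ighg1 lies just under the Jchain minimum at 0.480%.

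Splenic Cd79a-positive barcodes held mostly Ighm and Ighd in all 3 genotypes. Ighm was at 3062 CPM in WT, 2661 in Y665H and 2772 in Y665F, and Ighd at 974, 888 and 891 CPM. Neither gene differed by as much as 2-fold. Y665H held more Ighg1, with 276 UMIs against 12 in WT (ratio 16.1 per total UMI, counting interval 9.06 to 31.5), and more Ighg2c, with 150 against 24 (ratio 4.37, 2.83 to 7.03). Ighg2b, at 183 against 102 UMIs, had a ratio of 1.25 (0.979 to 1.61), and Igha, at 1172 against 915, had 0.896 (0.821 to 0.977). Of the Ighg2b UMIs, 1 WT barcode held 57 of the 102 and 1 Y665H barcode 42 of the 183, so the size of this ratio depends on them. Counted with these barcodes, among the 6 members with at least 50 UMIs in the pair of libraries 2 were past 2-fold higher and 0 lower. Of 10894 genes, 3.19% were past 2-fold higher, 0.285% lower and 3.47% in all.

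In Y665F, Ighg1 had 750 UMIs against 12 (ratio 135, 77.1 to 263), but 749 of them lay in 1 barcode. That barcode held 57925 UMIs, among them 278 of Jchain, 202 of Mzb1 and 127 of Xbp1. Its Jchain share of 0.480% was just under the 0.5% of the Jchain-high set. The same barcode held 87 of the 99 Ighg2b UMIs, and another held 35 of the 40 Ighg3 UMIs. In WT, 1 barcode held 57 of the 102 Ighg2b UMIs, so the direction of Ighg2b rests on single barcodes in both libraries. Igha was lower, with 117 UMIs against 915 in WT (ratio 0.277, 0.227 to 0.336). Counted with these barcodes, 3 of 6 members with enough UMIs were past 2-fold higher (Ighg1, Ighg2b and Ighg3) and 1 lower (Igha), where 1.86% of 9939 genes were past 2-fold higher, 1.74% lower and 3.6% in all.

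Most switched genes of splenic Cd79a-positive barcodes also occurred in T cell barcodes of the same library. Igha UMIs occurred in 30.5% of Cd79a-positive barcodes of WT, 31.8% of Y665H and 9.87% of Y665F, and in 33.7%, 35.8% and 11.4% of barcodes with Cd3e and no Cd79a. Ighg1 occurred in 0.240%, 5.70% and 0.222% of the former and in 0%, 6.74% and 0.452% of the latter, and Ighg2c in 1.01%, 5.06% and 1.33% against 0.995%, 7.23% and 1.26%. Ighg2b occurred in 2.02%, 4.28% and 0.998% against 1.93%, 4.57% and 0.0969%, so that in Y665F it was more frequent in Cd79a-positive barcodes. Ighg3 was more frequent in Cd79a-positive barcodes of each library, at 0.432%, 0.531% and 0.665% against 0.199%, 0.0613% and 0.0646%. Median depths were 4126, 4130 and 3984.5 UMIs in Cd79a-positive barcodes and 6112, 5891 and 7444 UMIs in T cell barcodes. Thinned to 1000 UMIs a barcode, Igha occurred in 7.76%, 8.09% and 2.24% of Cd79a-positive and in 5.59%, 8.42% and 1.46% of T cell barcodes. The WT share of Igha in Cd79a-positive barcodes (exact binomial interval 6.64 to 9.0) lay above that in T cell barcodes (4.85 to 6.40), while the intervals of Y665H and of Y665F overlapped. For Ighg1 and Ighg2c of Y665H they overlapped too, at 1.40% (0.995 to 1.90) against 1.11% (0.778 to 1.53) and at 1.07% (0.726 to 1.53) against 0.986% (0.676 to 1.39). The Y665H ratios of Ighg1 and Ighg2c above are therefore not read as expression by Cd79a-positive cells as a whole. The most UMIs in 1 Y665H Cd79a-positive barcode were 18 of 276 for Ighg1 and 2 of 150 for Ighg2c. Expression by a few of these cells was not tested. Igha was also less frequent in T cell barcodes of Y665F than of WT, at 11.4% against 33.7%, so its Y665F ratio is not read so either. Per 1000 UMIs in Jchain-high barcodes, T cell barcodes of WT held 26.2 Igha, 14.5 Ighg2b and 14.3 Ighg2c UMIs, and those of Y665H held 27.2 Igha, 24.5 Ighg1, 18.5 Ighg2b and 17.3 Ighg2c UMIs. Those of Y665F held 8.35 Ighg2c, 45.5 Ighg2b and 424 Ighg1 UMIs, the last pair from 3 against 66 and 14 against 33 UMIs, and their Igha numbered 381 UMIs against 25374.

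Ighm and Ighd were more frequent in Cd79a-positive than in T cell barcodes of spleen. Ighm occurred in 93.1%, 92.3% and 95.2% of Cd79a-positive barcodes of WT, Y665H and Y665F and in 70.4%, 68.7% and 68.7% of T cell barcodes. Thinned to 1000 UMIs a barcode, it occurred in 81.0%, 78.3% and 83.8% of the former and in 22.6%, 23.2% and 19.1% of the latter. Ighd occurred in 76.4%, 74.2% and 80.7% of Cd79a-positive barcodes of WT, Y665H and Y665F and in 6.82%, 7.94% and 4.36% of T cell barcodes. Cd3e UMIs occurred in 20.3%, 19.8% and 12.6% of the Cd79a-positive barcodes, and myeloid and erythroid genes summed to 1329, 10527 and 9306 CPM in them. The part of these in the Ighm and Ighd levels was not tested. Barcodes assigned to a class in WT numbered 1815 of Ighm or Ighd, 19 of Igha, 2 of Ighg2b and 1 each of Ighg1 and Ighg2c. In Y665H they numbered 2417, 38, 4, 12 and 2 in that order, and in Y665F 836, 3, 0, 1 and 1, with 1 more of Ighg3.

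Bone marrow Cd79a-positive barcodes held Ighm and little else of the 7 genes, and in 5 of 6 libraries most of them held B cell precursor genes. Ighm took 91.6% to 97.4% of the constant gene UMIs in the 6 libraries. Ighg1, Ighg2c and Ighg3 had 0 UMIs in all 6, and of the other Ighg and Igha genes Ighg2b occurred in each library and Igha in 1 library. At the smallest library, 0 UMIs allow up to 8.20 CPM, and at the largest up to 1.51 CPM (3 UMIs). Barcodes with an Ighg or Igha UMI also held Ighm in 1 of 1 and 12 of 18 cases in WT. This held for 4 of 5 and 4 of 10 in Y665H and for 16 of 26 and 4 of 6 in Y665F. Whether the locus of these cells had switched was not tested, so the UMIs are not read as class switching. No member was called between genotypes.

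The WT libraries had Ighm at 511 and 401 CPM. Those of Y665H had 413 and 338 CPM, and those of Y665F 399 and 175 CPM. Y665F replicate 2 stood below the other 5 libraries. The log2 difference of Ighm was −0.61 in Y665F (SE 0.34, edgeR adjusted p = 0.275) and −0.10 in Y665H (adjusted p = 0.995). Without Y665F replicate 1 the difference was −1.32 (adjusted p = 0.0480), and without Y665F replicate 2 it was −0.10, so 1 library decided its size. Of the 2 members tested, Ighm and Ighg2b, 0 were called in Y665F, where 7.91% of 7724 genes were called (2.96% higher and 4.95% lower), and DESeq2 gave an adjusted p of 0.385 for Ighm and none for Ighg2b. In Y665H 0 were called, where 0.0% of the genes were called by edgeR, 274 genes were at an unadjusted p under 0.05 and DESeq2 called 1.

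Ighg2b had 1 and 21 UMIs in WT (2.73 and 21.7 CPM), 5 and 10 in Y665H (8.83 and 20.6 CPM) and 11 and 6 in Y665F (5.55 and 3.74 CPM). The WT libraries spanned all others. The log2 difference of Ighg2b was −1.69 in Y665F (SE 0.69, edgeR adjusted p = 0.131) and 0.04 in Y665H (adjusted p = 0.998). Without WT replicate 2 the Y665F difference turned to 0.96, and without WT replicate 1 it was −2.35 (adjusted p = 0.0171). Igha had 15 UMIs, all in Y665F replicate 1, where it occurred in 1.61% of Cd79a-positive barcodes and in 0.925% of barcodes with Mpo, a neutrophil granule enzyme, and no Cd79a. That library also held 2 Jchain-high barcodes led by Igha. Ighd had 4 and 8, 3 and 5, and 19 and 8 UMIs in WT, Y665H and Y665F, and its ratio to Ighm in Mpo barcodes, 0.0072 to 0.0175, was near that of the Cd79a-positive barcodes.

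The Ighg2b of Cd79a-positive bone marrow barcodes lay in those with precursor genes. Vpreb1 and Igll1 encode the surrogate light chain that stands in for the light chain before its gene is rearranged, and Dntt adds bases at the joints of early rearrangements. All 54 Ighg2b UMIs of the set were in barcodes with a UMI of Vpreb1, Igll1 or Dntt, in 51 of 1932 such barcodes (2.64%, exact binomial interval 1.97 to 3.46). The Cd79a-positive set held 22 of the 34 Ighg2b UMIs of all kept barcodes in WT, 15 of 21 in Y665H and 17 of 45 in Y665F, and the others were not split in this way. Without these genes Ighg2b occurred in 0 of 907 barcodes (exact binomial interval 0 to 0.406), where 3 barcodes would be 0.331%. Both counts pool barcodes of the 6 libraries, which are not replicates. Within each library the intervals of the subsets overlapped, as at 2.52 to 6.58 against 0 to 3.24 in WT replicate 2. Ighm occurred in 53.6% of the former and 12.6% of the latter, and 91.0% of its UMIs were in the former. The median depth of the former was 1248 to 2249.5 UMIs and of the latter 1103 to 2294 UMIs, with the former deeper in 3 of 6 libraries. In Mpo barcodes Ighg2b occurred in at most 0.0647% of barcodes of any library. Ighm occurred in 13.3% to 23.8% of Mpo barcodes, at 59.1 to 114 CPM. In Cd79a-positive barcodes without precursor genes it occurred in 7.69% to 14.3%, at 39.9 to 119 CPM. By Ighm these barcodes therefore cannot be told from Mpo barcodes, and they are not read as later B cells.

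**Figure D5:**
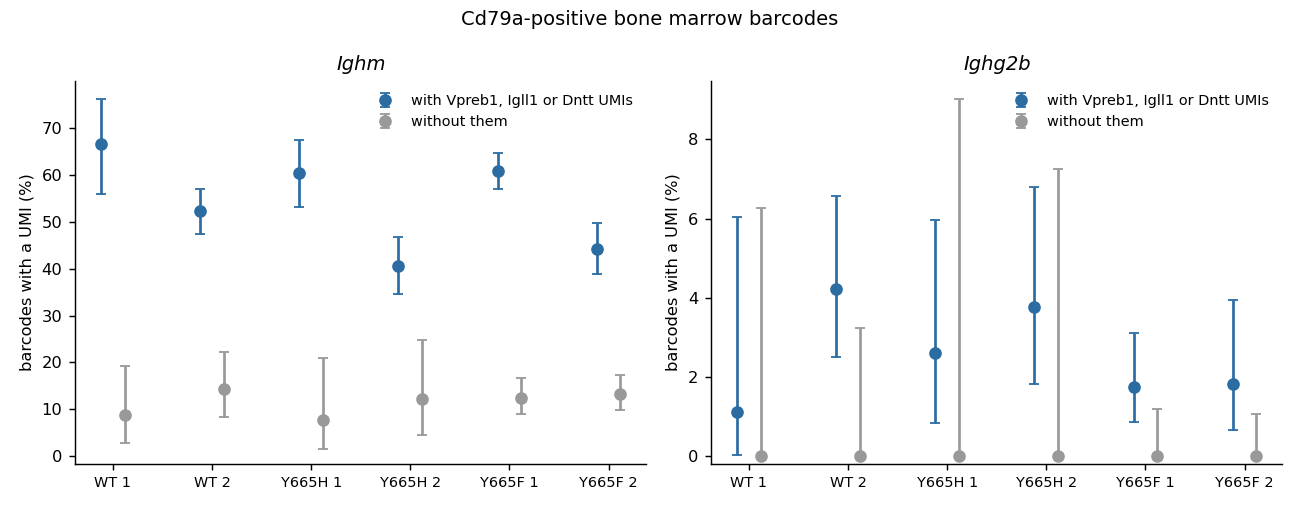
Share of Cd79a-positive bone marrow barcodes with an Ighm UMI (left) and with an Ighg2b UMI (right) in each of the 6 libraries, split by whether the barcode held a UMI of Vpreb1, Igll1 or Dntt, with 95% exact binomial intervals. The Ighm share of blue points is 40.6% to 66.7% and that of grey points 7.69% to 14.3%, and Ighg2b is at 0 in all grey points. The Ighg2b intervals of blue and grey points overlap in each library.

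The make-up of the bone marrow set differed between genotypes. Barcodes with a precursor gene were 61.2% and 79.2% of Cd79a-positive barcodes in WT, 83.1% and 84.4% in Y665H and 67.4% and 48.7% in Y665F. Within them the WT libraries had Ighm at 718 and 479 CPM, the Y665H libraries at 549 and 411 and the Y665F libraries at 637 and 263, so that Y665F replicate 2 was again the lowest. In Y665F, 6 of 7 tested myeloid and erythroid genes were called higher, among them S100a8 with a log2 difference of 4.59 (adjusted p = 5.73e-07), and 2 of 4 mature B cell genes lower (Cd79b −1.81, Cd37 −1.69). Cd79a, which the choice of this set used, is 1 of the 4 and is not read as tested. The summed myeloid and erythroid level lay between 495 and 590 CPM for WT, between 710 and 1334 for Y665H and between 2483 and 2595 for Y665F. Of 10 precursor genes, 1 was called higher in Y665F, Sox4 with 1.20 (adjusted p = 0.0136), while the next by p, Dntt at −0.88 (adjusted p = 0.0711), Igll1 at −1.19 (0.0990) and Il7r at −0.88 (0.135), did not pass the test. The summed precursor level was 1437 CPM in Y665F replicate 2 and 4268 to 4944 CPM in the other 5 libraries. Of 9 class switch and germinal centre genes 1 was called lower in Y665F, Ung, a DNA repair enzyme, with −1.17 (adjusted p = 0.0343). Both counts of 1 stand beside 2.96% of all genes called higher and 4.95% lower, so neither is read as a result about its list. The part of these in the Ighm level was not tested.

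Jchain-high barcodes were few in lymph node and bone marrow. In LN there were 3 and 4 in WT, led by Igha (4), Ighg1 (2) and Ighg2b (1), 0, 0 and 6 in het, the 6 led by Igha (5) and Ighg2b (1), and 1 and 1 in homo, both led by Ighm. In BM there were 0 and 1 in WT, led by Ighm, 6 and 0 in Y665H, led by Ighm (3), Ighg2c (2) and Igha (1), and 3 and 0 in Y665F, led by Igha (2) and Ighm (1). With at most 6 barcodes a library, class use was not compared between genotypes there.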

How the data were processed

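The libraries were 10x Genomics droplet libraries of LN, spleen and BM cells, with 7 further LN T cell receptor libraries that served only to mark barcodes. Per the labels, the authors made UMI counts per gene and barcode with Cell Ranger 5.0 on mm10 and used Seurat 4.0; the study's methods name later versions, GRCm38 and a 5′ kit, where the labels name a 3′ kit. The deposited count matrices were used as they are.

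Barcodes were kept from 200 genes upward where mitochondrial UMIs made up no more than 10%, and doublets were removed by score against simulated doublets at 0.8% per 1000 barcodes. UMIs were summed per library and tested with edgeR 4.0.16 (TMM, filterByExpr, quasi-likelihood, all libraries of a tissue in 1 fit, Benjamini-Hochberg adjustment over all genes tested, a call at adjusted p under 0.05 and over 2-fold); DESeq2 1.42.0 was an alternative. Both were tested on simulated counts. Counting intervals are exact and cover counting error only, and floors are 3 UMIs. The members, gene lists and tests were chosen with earlier results of these data known. Named beside the members were genes of these lists, at most 4 a list by smallest p. 1 gene of the class switch list is not reported here. The 200-gene minimum acts more on the 2 shallow LN libraries, where 19.0% and 15.6% of barcodes fell below it.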

Additional observations from a re-analysis of the deposited data

How the results depend on the processing

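Whether a value under an alternative counted as the same depended on its kind. A tested difference had to keep its direction and side of the threshold. A count of called genes had to stay within a set fold of the main count. A share had to stay within the SD of its group or, for 1 library, within its exact interval. By these rules 89 of 125 values were the same among results that answer a comparison, and 609 of 696 among single members. The count of genes called in Y665F homo LN (4) was 57 with no filter on low counts, 25 with at least 500 genes per barcode, 8 with Cd79a at 2 or more UMIs and 1 to 69 without 1 library each. In het LN (58) it was 17 in DESeq2, 141 with no filter, 159 with at least 500 genes, 23 with doublets kept and 25 to 116 without 1 library each. In Y665F BM (611) it was 261 in DESeq2, 226 with Cd79a at 2 or more UMIs and 125 to 917 without 1 library each, and in Y665H BM (0) it was 1 in DESeq2, 8 with no filter and 0 to 8 without 1 library each. Ighg2b in homo LN was called with no filter (adjusted p = 8.19e-06 in edgeR), with at least 500 genes (6.34e-05) and without WT replicate 1 (0.00552).

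Among tested differences, directions turned only near 0 or where few UMIs stood. The LN homo difference of the log2 Ighd to Ighm ratio was −0.061 with doublets kept and −0.070 to 0.24 without 1 library each. In homo LN, Ighg1 was 0.28 in DESeq2, 0.13 with Cd79a at 2 or more UMIs, 0.15 with doublets kept and −0.66 to 0.87 without 1 library each, Ighm was −0.17 to 0.30 and Ighg3 −0.91 to 1.57 without 1 library each, and Ighg3 was −0.91 without the 2 shallow libraries. In BM, Ighg2b without 1 library each was −2.35 to 0.96 in Y665F and −0.70 to 2.67 in Y665H, and −0.041 in Y665H with at least 500 genes; Ighm in Y665H was −0.13 to 0.011. The cause was not tested.

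The switched share of spleen Cd79a-positive UMIs (2.67% in WT, 3.52% in Y665H, 5.87% in Y665F) was 2.24% in WT and 2.67% in Y665H with Cd79a at 2 or more UMIs, and 2.14%, 2.69% and 1.10% in the 3 genotypes without Cd3 or Siglech UMIs. Without barcodes that held at least 20 UMIs of 1 switched gene it was 2.18% in WT and 0.915% in Y665F. Y665F thus lay above WT in the main setting, and below WT without Cd3 or Siglech UMIs or without such barcodes. The rules above did not count a turn in the direction of a share. In BM Y665F the share of the Ighg and Igha genes was 3.84% with Cd79a at 2 or more UMIs, and it is not read as class switching there. The leaving out of the shallow libraries and of barcodes with many UMIs was chosen after seeing the data.

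With the replicate number as a block (replicate block), calls numbered 10 in homo LN, 51 in het LN, 755 in Y665F BM and 1 in Y665H BM. Deviations of same-numbered libraries correlated at −0.04 to 0.05 in LN and −0.05 to 0.15 in BM, so the numbers were not taken as pairs. Depth limits the rare members: 1 UMI in the 2 shallow LN libraries stands for over 4 CPM.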

Other observations

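For each member, the genes whose level in Cd79a-positive sums was most like it were sought over the 16 libraries, after subtracting the mean of each tissue, by Pearson's r of log2(CPM + 1). The libraries share tissue-wise preparation and differ in depth, so these are descriptions. Ighm was nearest to Hes6 (r = 0.91), Snx2 (0.91) and Ypel3 (0.90), and Ighd to Foxo1 (0.87), Prkcb (0.81) and 2310033P09Rik (0.81). Ighg2b was nearest to Ezh2 (0.85), Pclaf (0.83) and Hpf1 (0.80). Ighg1 had Rab5if (0.72), Hist1h2ae (0.71) and Mki67 (0.70), Ighg2c Hist1h2ae (0.72), Vma21 (0.69) and Paics (0.66), Ighg3 Aprt (0.76), Vrk1 (0.69) and Trappc6a (0.66), and Igha Pip5k1c (0.78), Tpt1 (0.78) and Ptprcap (0.76).

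Some barcodes outside the Jchain-high set held many UMIs of 1 switched gene. In WT spleen 3 barcodes held 38, 57 and 39 Igha UMIs at 0 to 4 Jchain UMIs, and 1 held 57 Ighg2b UMIs, the last with 41 UMIs of Ms4a1, the B cell surface gene for CD20, and with 52 Jchain and 36 Mzb1 UMIs among 39584. In Y665H spleen 1 barcode held 42 Ighg2b UMIs with 23 Ms4a1 UMIs and 1 Jchain UMI. In Y665F spleen the barcode of 35 Ighg3 UMIs held 12 Ms4a1 and 0 Jchain UMIs. These values are at the level of single barcodes and bear on no comparison of genotypes.

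Switched genes and Ighd rarely met in 1 barcode of WT lymph node. There, 5 of 58 and 9 of 75 barcodes with a UMI of a switched gene also held an Ighd UMI, where Ighd occurred in 26.3% and 31.4% of all Cd79a-positive barcodes. Het replicates 1 and 2 did not show this, with 7 of 16 and 6 of 13 such barcodes where Ighd occurred in 53.7% and 41.3% of all. The classes differed, since 13 and 10 barcodes of these het libraries held Igha and 3 and 4 an Ighg gene. In WT 16 and 12 held Igha and 43 and 64 an Ighg gene, so the contrast with WT is not one of like classes. The other 3 mutant libraries held 1 of 11, 0 of 12 and 2 of 10.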
